A study of Mus musculus with 32 samples.

Results

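The transcripts described here are those of the mitochondrial ribosomal proteins, the proteins that build the ribosome inside mitochondria. They were chosen by symbol alone, as every gene whose name starts with Mrpl or Mrps followed by a digit. This gave 77 of the 24302 genes listed, 48 named Mrpl for the large subunit and 29 named Mrps for the small subunit, and all 77 passed the filter on low counts. Levels were measured by poly(A) RNA sequencing in CD4+ T cells, the helper and regulatory lineage of T lymphocytes, taken from spleen and lymph nodes of C57BL/6J mice. Of the 8 groups, each with 4 libraries, 4 came from wild-type (WT) mice and 4 from mice labelled as knockouts (KO) of Nr4a1, which encodes the nuclear receptor Nur77. In either genotype 1 group was left unstimulated and 1 received anti-CD3 and anti-CD28 for 12 h, and 2 more had this stimulation along with XCT790 or the compound coded CompA, each at 10 µg/ml. XCT790 inhibits ERR-alpha, an estrogen-related nuclear receptor, as its inverse agonist, and CompA is known here only by its code. For cells stimulated without a compound, the sources used here name no vehicle. Separate animals or cultures are not stated for the 4 libraries of a group. The p-values therefore measure only how far those libraries spread, which may be technical.

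Mitochondrial ribosomes translate only the few mRNAs of mitochondrial DNA, all of which encode core subunits of the respiratory chain and ATP synthase. Their ribosomal RNAs come from mitochondrial DNA, but every one of their proteins is encoded in the nucleus, made in the cytosol and imported. Some of these proteins descend from bacterial ribosomal proteins and sit close to the RNA core, and others exist only in mitochondria and cover its surface. T cells that leave quiescence grow, enlarge their mitochondria and raise respiration, and for this they need both the nuclear and the mitochondrial products. By this background knowledge the 77 genes were sorted into 29 large-subunit proteins with a bacterial counterpart, 21 large-subunit proteins specific to mitochondria, 16 small-subunit proteins with a bacterial counterpart and 10 specific to mitochondria. Mrps30 and Mrps18a carry a small-subunit name but are placed in the large subunit. Mrps36 was kept apart, since in animals it is a part of the 2-oxoglutarate dehydrogenase complex and not a stable ribosome component. All 77 are protein-coding genes of GRCm38 in the GENCODE M21 annotation, spread over 17 chromosomes. The exons of 25 overlap those of another gene, and since it is not given whether reads were counted by strand, their values may include reads of the neighbour. Mrpl53 is the extreme case, with its whole exonic length inside the same-strand gene model Gm42688.

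Because the 77 genes moved together, their promoters were searched for short motifs of factors known for nuclear genes of mitochondrial proteins. RefSeq windows of GRCm38.p6, from 250 bases before to 50 bases after the annotated start, were available for 68 of them. A gene with more than 1 window was counted once, as matched if any of its windows matched. The shares of all windows given below are per window and not per gene. The NRF1 motif (GCGCA, any base, then GCGC) stood on either strand in 13 of the 68 genes (19.1%), against 11.8% of the 9393 tested genes with a window and 4.6% of all 32851 windows. The motif CCGGAAG of the ETS factor GABPA stood in 25 (36.8%, against 20.5% and 8.86%), and the YY1 motif AAGATGGC in 12 (17.6%, against 5.43% and 2.75%). The E-box CACGTG, bound by MYC, stood in 5 (7.35%, against 11.8% and 7.15%), and the GC box GGGCGG of SP1 in 34 (50%, against 68.2% and 35.7%). The ERR-alpha letters TNAAGGTCA and the NBRE letters AAAGGTCA, the site of NR4A receptors, were found in 0 of the 68 genes, against 0.905% and 1.19% of tested genes. These last 2 motifs can overlap each other. A match is a description of the letters and not a binding site, and the absence of a match says only that the letters are not in this window. Upstream stretches of 200 bases, free of annotated exons, are printed for 3 genes as examples of the NRF1, GABPA and E-box letters, 5′ to 3′ on the gene's strand and ending at the base before the start, with each motif match in capitals.
Mrpl45 (chr11:97315516-97315715, plus strand, with NRF1 letters beginning 120 and 38 bases before the start): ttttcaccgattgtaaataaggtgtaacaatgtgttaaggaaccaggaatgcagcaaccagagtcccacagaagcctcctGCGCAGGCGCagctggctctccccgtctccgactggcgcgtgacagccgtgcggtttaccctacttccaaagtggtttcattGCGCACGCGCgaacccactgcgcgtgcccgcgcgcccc
Mrps22 (chr9:98601680-98601879, minus strand, with GABPA letters beginning 11 and SP1 letters 147 bases before the start): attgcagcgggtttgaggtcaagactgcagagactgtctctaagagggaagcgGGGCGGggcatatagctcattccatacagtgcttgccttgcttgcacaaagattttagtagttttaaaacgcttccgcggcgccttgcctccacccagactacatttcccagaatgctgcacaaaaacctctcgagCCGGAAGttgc
Mrpl20 (chr4:155802678-155802877, plus strand, with the E-box beginning 33 bases before the start): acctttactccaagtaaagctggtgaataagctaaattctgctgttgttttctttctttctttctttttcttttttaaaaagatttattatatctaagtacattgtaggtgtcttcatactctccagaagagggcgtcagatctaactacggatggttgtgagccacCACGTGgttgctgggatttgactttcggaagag

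Libraries held 16.02 to 23.69 megacounts in genes, and the 77 transcripts took 0.262 to 0.844% of them. The targeted gene Nr4a1 was not lower in the KO-labelled groups. Its level was 71.6 ± 21.4 CPM (counts scaled to library size, SD, n = 4) in WT and 94.2 ± 10.9 in KO-labelled unstimulated cells, and 166 ± 32.7 and 332 ± 128 after stimulation. Whether the counted reads lie in the altered part of the gene cannot be told from gene counts, so the genotype is given below as the label states it. The sum of 8 CD4 T cell markers was 3312 to 5665 CPM of the library total in all libraries. The 14 myeloid and dendritic markers, each detected in every group, summed to 2661 to 5139 CPM in WT and 1252 to 3089 in KO-labelled unstimulated libraries. They summed to 551 to 1808 in the WT stimulated libraries, but to 13.5 to 50.2 in the other stimulated groups. The sum of 8 B cell markers was 154 to 202 CPM in WT unstimulated libraries and 99.8 to 813 in KO-labelled unstimulated ones. A set of 112 genes was chosen for a mean of at least 10 CPM in WT unstimulated cells and under 0.02 of that mean in the other 5 stimulated groups, and in sum it stood at 0.161, 0.465, 0.221 and 0.216 of the WT unstimulated level in the 4 WT stimulated libraries, which the choice did not use. Counts of called members and medians over all 77 that rest on the WT stimulated group are therefore also given, here or in the closing sections, with that unstimulated share subtracted. Stimulation folds of single genes in WT cells, the other gene lists and the motif medians are given without the subtraction. The source of the share was not tested, and remaining myeloid cells and unstimulated T cell RNA were not told apart. In bulk RNA, fewer cells of a type and less RNA per cell cannot be told apart.

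In unstimulated WT cells the 77 transcripts lay between 4.37 and 143 CPM per kilobase of exon, with a median of 22.6. The highest were Mrpl52 (143 ± 50.1 CPM per kilobase, SD, n = 4), Mrpl33 (132 ± 38.9) and Mrpl30 (124 ± 35), which did not differ beyond their spread. The lowest were Mrpl47 (4.37 ± 1.28) and Mrps25 (4.397 ± 1.28). After stimulation the WT median was 51.1 CPM per kilobase and the KO-labelled median 62.6, with Mrpl52 first in both groups at 222 ± 32.4 and 273 ± 60.3. Mrpl12, a protein of the flexible stalk that recruits translation factors, was ranked second in stimulated KO-labelled cells (258 ± 87.3 CPM per kilobase), close to Mrpl33 (256 ± 65.5).

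The summed level of the 77 genes separated unstimulated from stimulated cells in every library. The 4 WT unstimulated libraries held 4158, 2473, 3101 and 2665 CPM (replicates 1 to 4), and the WT stimulated libraries 7350, 5933, 6783 and 5811 CPM. The KO-labelled unstimulated libraries held 2202, 2280, 2170 and 2389 CPM, and the stimulated ones 9270, 7986, 6282 and 7370 CPM. The KO-labelled unstimulated libraries were thus all below all WT unstimulated ones, while the stimulated libraries of the 2 genotypes overlapped. With XCT790 the sums were 6934, 7584, 7392 and 7214 CPM in WT and 6880, 6569, 5139 and 6329 in KO-labelled cells. With CompA they were 6979, 7047, 7086 and 6926 CPM in WT and 7095, 5965, 5011 and 6169 in KO-labelled cells. Sums with a compound lay within the range of the WT stimulated libraries in all but 2 of the 8 WT libraries, and in KO-labelled cells every library with a compound was lower than the stimulated library of the same run of 4 library numbers.

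**Figure D1:**
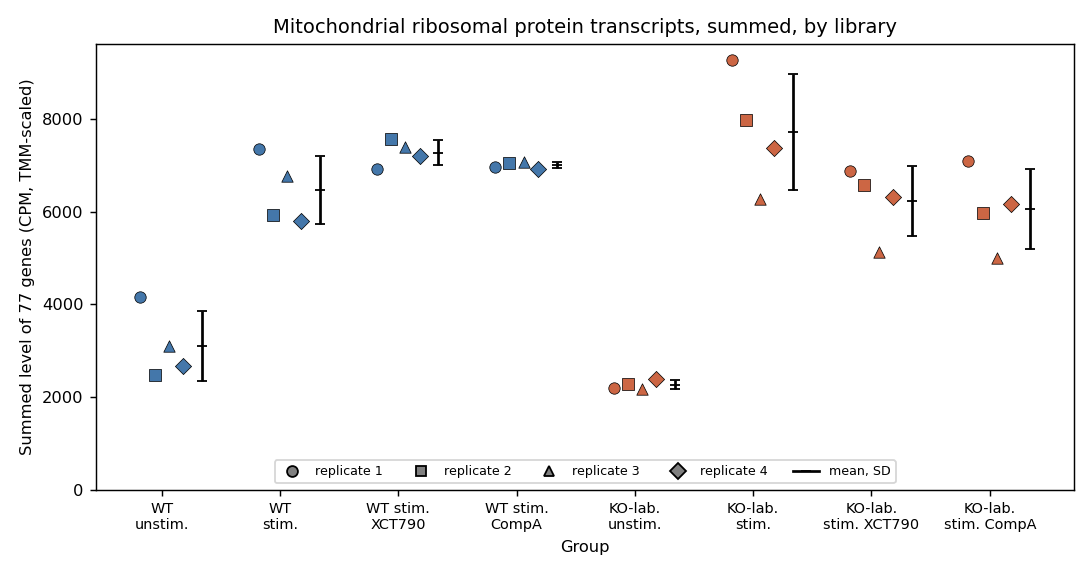
Summed level of the 77 genes (vertical axis, CPM scaled by TMM) in each of the 32 libraries, by group, with WT in blue and KO-labelled in orange. Markers give the replicate and the bar the mean and SD; all unstimulated libraries lie at or below 4158 CPM and all stimulated ones at or above 5011 CPM.

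Stimulation through CD3 and CD28 raised nearly all mitochondrial ribosomal protein transcripts in WT cells. Of the 77, 73 were higher and 0 lower at an adjusted p under 0.05 (edgeR's quasi-likelihood test), where 34.5% of all tested genes were higher and 38.8% lower. Their median log2 fold change was 1.13, against -0.11 over all 12332 genes tested. In 59 of the 77 every stimulated library was above every unstimulated one, against 30.3% of all tested genes. The rise held for 26 of 29 large-subunit proteins with a bacterial counterpart (median log2 change 1.14), 21 of 21 specific to mitochondria (1.16), 15 of 16 small-subunit proteins with a bacterial counterpart (0.97), 10 of 10 specific to mitochondria (0.98), and Mrps36 (1.52).

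The largest rise was that of Mrps22, a mitochondria-specific small-subunit protein (chromosome 9, 98588730 to 98601660, minus strand) whose upstream sequence is printed above. Its levels were 22.2, 14.2, 17.4 and 14.9 CPM in the unstimulated and 99.5, 73.8, 86.4 and 81.9 CPM in the stimulated WT libraries. The groups were far apart, with a 4.99-fold rise (log2 2.32 ± 0.13 SE, adjusted p = 5.5e-15). Mrpl12 (chromosome 11, 120484613 to 120489065, plus strand) went from 82.5, 44.7, 55.6 and 50.3 CPM to 281, 208, 254 and 222 CPM, a 4.14-fold rise (log2 2.05 ± 0.18, adjusted p = 3.1e-11). Mrps6 (4.18-fold) lay between these 2, and Mrps10 (4.02-fold), Mrpl20 (3.91-fold) and Mrps18b (3.88-fold) came after Mrpl12. Mrps6 and Mrps10 are small-subunit proteins with bacterial counterparts, Mrpl20 is the counterpart of a bacterial protein needed early in large-subunit assembly, and Mrps18b is one of 3 mitochondrial paralogs of the bacterial protein S18. Its paralogs rose less, Mrps18a 2.69-fold (adjusted p = 7.7e-10) and Mrps18c 1.91-fold (adjusted p = 1.3e-05).

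At the other end were 4 members that did not pass the test in WT cells. Mrpl24, a large-subunit protein near the exit tunnel, had a log2 change of 0.16 ± 0.14 (adjusted p = 0.31), Mrps16 of 0.25 ± 0.18 (0.2) and Mrpl14 of 0.38 ± 0.18 (0.062). Mrpl10, the stalk protein that anchors Mrpl12, was at 94.4, 62.2, 81.9 and 66.3 CPM unstimulated and 96.9, 84.6, 91.8 and 80.4 CPM stimulated (log2 0.22 ± 0.10, adjusted p = 0.064). Its groups overlapped, with unstimulated libraries at 94.4 and 81.9 CPM above the stimulated one at 80.4 CPM. Without the first unstimulated library its log2 change was 0.43 and its adjusted p 0.00018, and without stimulated replicate 4 the values were 0.26 and 0.039. The stalk proteins Mrpl12 and Mrpl10 bind each other, and their fitted changes lay near opposite ends of the list.

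In KO-labelled cells all 77 transcripts rose with stimulation, where 39.3% of all tested genes rose and 42.4% fell. The median log2 fold change was 1.70, against -0.07 over all genes, and in all 77 every stimulated library was above every unstimulated one (34.8% of all tested genes). Mrps22 again led, from 12.1, 12.4, 9.91 and 12.3 CPM to 126, 100.7, 86.7 and 98.7 CPM, an 8.81-fold rise (log2 3.14 ± 0.14, adjusted p = 6.4e-18). Mrpl12 went from 41.4, 43.7, 38.5 and 44.9 CPM to 511, 294, 261 and 295 CPM. Its first stimulated library was far above the others, and its 8.07-fold rise (log2 3.01 ± 0.18, adjusted p = 6.7e-15) was a log2 change of 2.74 without it. Mrpl20 rose 7.11-fold, Mrps18b 6.93-fold, Mrps28 6.74-fold and Mrpl47 6.35-fold. Mrpl10 (1.59-fold, adjusted p = 1.4e-06) and Mrpl24 (1.66-fold, adjusted p = 2e-05) had the smallest rises. Other scalings moved the median of all genes by up to 0.33 on the log2 scale (to -0.40 with library totals), and all 77 stayed called; the members' median minus that of all genes was 1.77 with TMM and 1.76 with library totals.

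**Figure D2:**
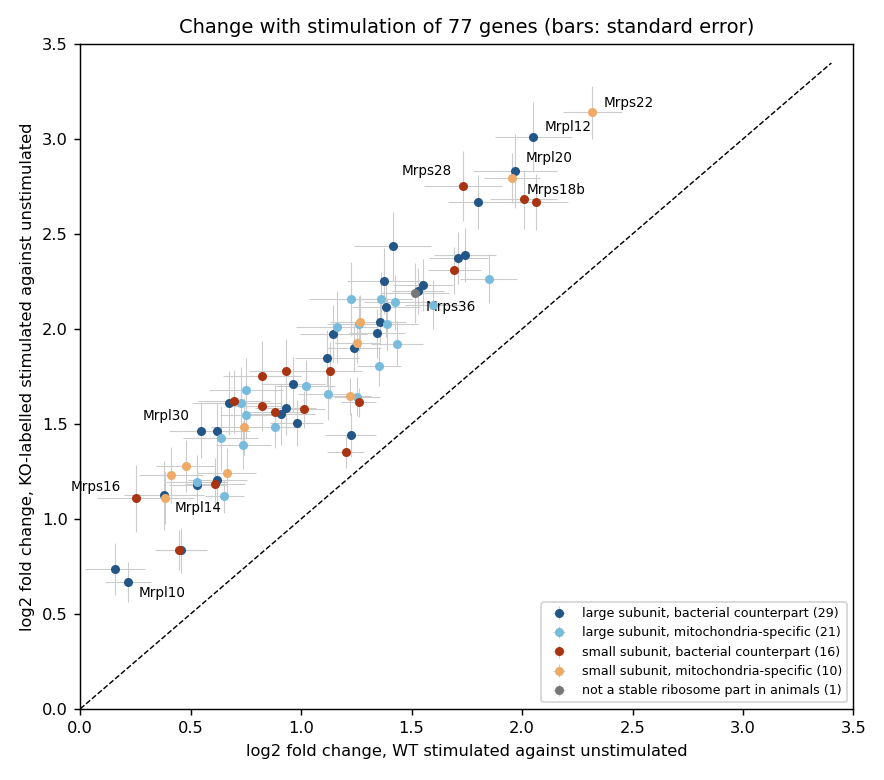
Log2 fold change with stimulation of each of the 77 genes in WT (horizontal axis) and KO-labelled cells (vertical axis), coloured by class, with SE bars and the line of equality dashed. Every gene lies above the line, and Mrps22 (2.32 and 3.14) and Mrpl12 (2.05 and 3.01) lie farthest out.

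**Figure D3:**
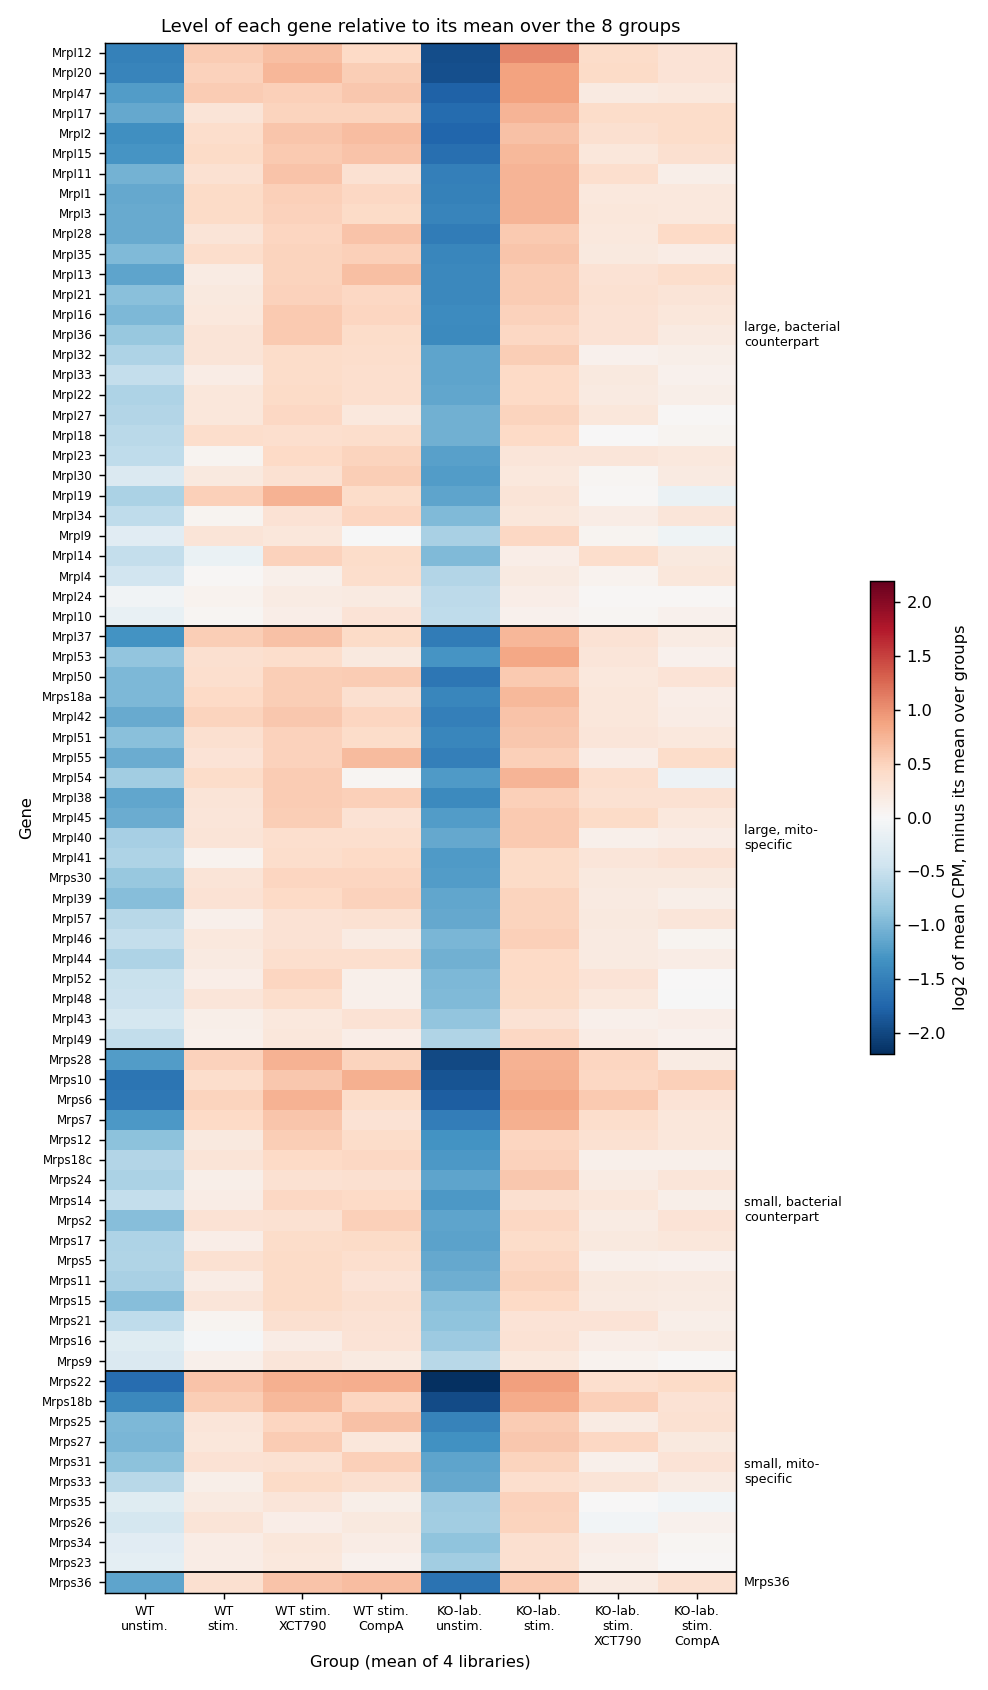
Mean level of each gene in each group (columns), as log2 CPM minus that gene's mean over the 8 groups, with genes ordered by class and by the rise in KO-labelled cells. Blue is low and red is high; the 2 unstimulated columns are lowest for nearly all genes, and the KO-labelled unstimulated column is the darker of the 2 for all but Mrps15.

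The rise was larger in KO-labelled than in WT cells for 73 of the 77 by the test of the difference itself, with 0 the other way, where 17.2% of all tested genes differed upward and 16.5% downward. The median of the differences was 0.68 on the log2 scale. Of 80 tested ribosomal proteins of the cytosol 68 were called the same way (median 0.80), and of 35 respiratory complex I subunits 34 (0.75). With library totals in place of TMM 52 members were called and their median was 0.41, while the split over all genes went from 2126 higher and 2035 lower to 883 and 3124. The members' median minus that of all genes was 0.72 with TMM and 0.70 with library totals. The largest was that of Mrps28 (1.02 ± 0.25, adjusted p = 0.0032), and Mrpl12 (0.96 ± 0.24, 0.0043), Mrpl53 (0.93 ± 0.27, 0.0098) and Mrpl30 (0.92 ± 0.20, 0.0016) were close to it. With the unstimulated share subtracted from the WT stimulated libraries the count was 4, and the differences were 0.64 for Mrps28 (adjusted p = 0.1), 0.55 for Mrpl12 (0.13) and 0.63 for Mrpl53 (0.12). That fit called 598 genes higher and 305 lower of all 12314, fewer than the main fit. The members' median was 0.39, against 0.10 over all genes. The count of members was 44 without WT unstimulated replicate 1, which had the highest summed level of its group, and 37 when only the 4 groups concerned were fitted. This difference shares its unstimulated libraries with the comparison that follows.

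Before stimulation, KO-labelled cells had lower levels than WT cells. Of the 77 members 62 were lower and 0 higher, where 23.6% of all tested genes were lower and 12.5% higher, and the median log2 difference was -0.46 against -0.08 over all genes. In 34 of them all 4 KO-labelled libraries were below all 4 WT ones (19.8% of all tested genes). Mrpl30, a large-subunit protein with a bacterial counterpart, stood at 166, 91.8, 126 and 97.8 CPM in WT and at 64.5, 64.8, 61.1 and 65.9 CPM in KO-labelled libraries. These values did not overlap, and Mrpl30 was 1.88-fold lower (log2 -0.91 ± 0.14, adjusted p = 5.3e-05). Mrps28 was 1.69-fold lower (adjusted p = 0.0023), Mrps14 1.66-fold (0.0016) and Mrpl33 1.57-fold (0.0048). Mrps15 alone had a positive sign (log2 0.02 ± 0.08, adjusted p = 0.85).

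The WT unstimulated libraries differed among themselves, and replicate 1 was the highest for Mrpl12, Mrps22, Mrpl47, Mrpl30, Mrpl14 and Mrpl10. Without it 9 members were called lower in place of 62 and the median was -0.20. The counts were 39 and 36 without KO-labelled unstimulated replicates 1 and 3, and 10 when only the 2 groups were fitted. Calls over all tested genes were not counted in these fits. Fewer calls among all genes therefore cannot be told apart from fewer among the members alone. Library totals in place of TMM gave 25 lower and 1 higher, changed the split over all genes from 1543 higher and 2911 lower to 2990 and 1183, moved the median of all genes from -0.08 to 0.13, and left the members' median below it by about the same amount (-0.38 with TMM, -0.36 with library totals). Mrpl33 lost its call without WT replicate 1 (log2 -0.37, adjusted p = 0.085). The WT unstimulated libraries also held more myeloid marker RNA than the KO-labelled ones, as given above, and the part of this in the difference was not tested.

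After stimulation the order was the opposite, but few differences passed the test. Of the 77 members 10 were higher in KO-labelled cells and 0 lower, where 7.31% of all tested genes were higher and 17.9% lower, and 76 of 77 had a positive sign. The 10 were Mrpl12, Mrpl53, Mrps10, Mrpl13, Mrps6, Mrps7, Mrpl49, Mrps27, Mrpl3 and Mrpl45. Mrpl12 was 1.41-fold higher (log2 0.50 ± 0.17, adjusted p = 0.03), but not called without KO-labelled stimulated replicate 1 (0.26, adjusted p = 0.18) or WT stimulated replicates 2 (0.42, 0.11) or 4 (0.46, 0.073). Mrpl49 (0.35 ± 0.09, adjusted p = 0.0035) and Mrps27 (0.34 ± 0.10, 0.011) had the smallest p-values of the 10, and Mrps27 was not called without WT stimulated replicate 2 (0.29, adjusted p = 0.052). The count was 18, 1, 5 and 2 without WT stimulated replicates 1 to 4, and 5, 16 and 30 without KO-labelled stimulated replicates 1, 2 and 3. Subtracting the unstimulated share left 0 higher and 1 lower, with a median of -0.03. Over all 12314 genes of that fit, 501 were higher and 238 lower.

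Under both compounds all 77 members had a lower fitted level in KO-labelled than in WT cells (medians -0.21 with XCT790 and -0.20 with CompA), but few passed the test. The libraries did not overlap, with KO-labelled lower, for 30 members with XCT790 and 15 with CompA, against 8.82 and 6.94% of all tested genes. Mrpl19 had the largest difference under both. With XCT790 the members lower in KO-labelled cells were Mrpl19, Mrps22 and Mrps5, and with CompA they were Mrpl19 and Mrpl39 (2.11 and 1.88% of all tested genes were lower, and 7.4 and 5.82% higher). Mrpl19, a large-subunit protein with a bacterial counterpart (chromosome 6, 81957851 to 81965958, minus strand), was at 125, 123, 125 and 127 CPM in WT and 75.7, 88, 63.6 and 72.4 CPM in KO-labelled cells with XCT790, 1.67-fold lower (adjusted p = 8.2e-05). With CompA it was at 100.9, 92.7, 98.8 and 98.8 CPM in WT and 73.8, 70.4, 59.7 and 63.6 CPM in KO-labelled cells, 1.46-fold lower (adjusted p = 0.0025). The libraries of the 2 genotypes did not overlap under either compound. In the annotation, exons of Gcfc2 on the opposite strand cover 39.2% of its exonic length. Mrps22 (log2 -0.41 ± 0.13, adjusted p = 0.037) was not called when any one of WT replicates 1 to 4 or of KO-labelled replicates 3 and 4 was left out (adjusted p 0.05 to 0.14), Mrps5 (-0.31) not without WT replicates 1, 3 or 4 or KO-labelled replicate 3 (0.063 to 0.12), and Mrpl39 (-0.39 ± 0.10, 0.014) not without KO-labelled replicate 3 under CompA (0.086).

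**Figure D4:**
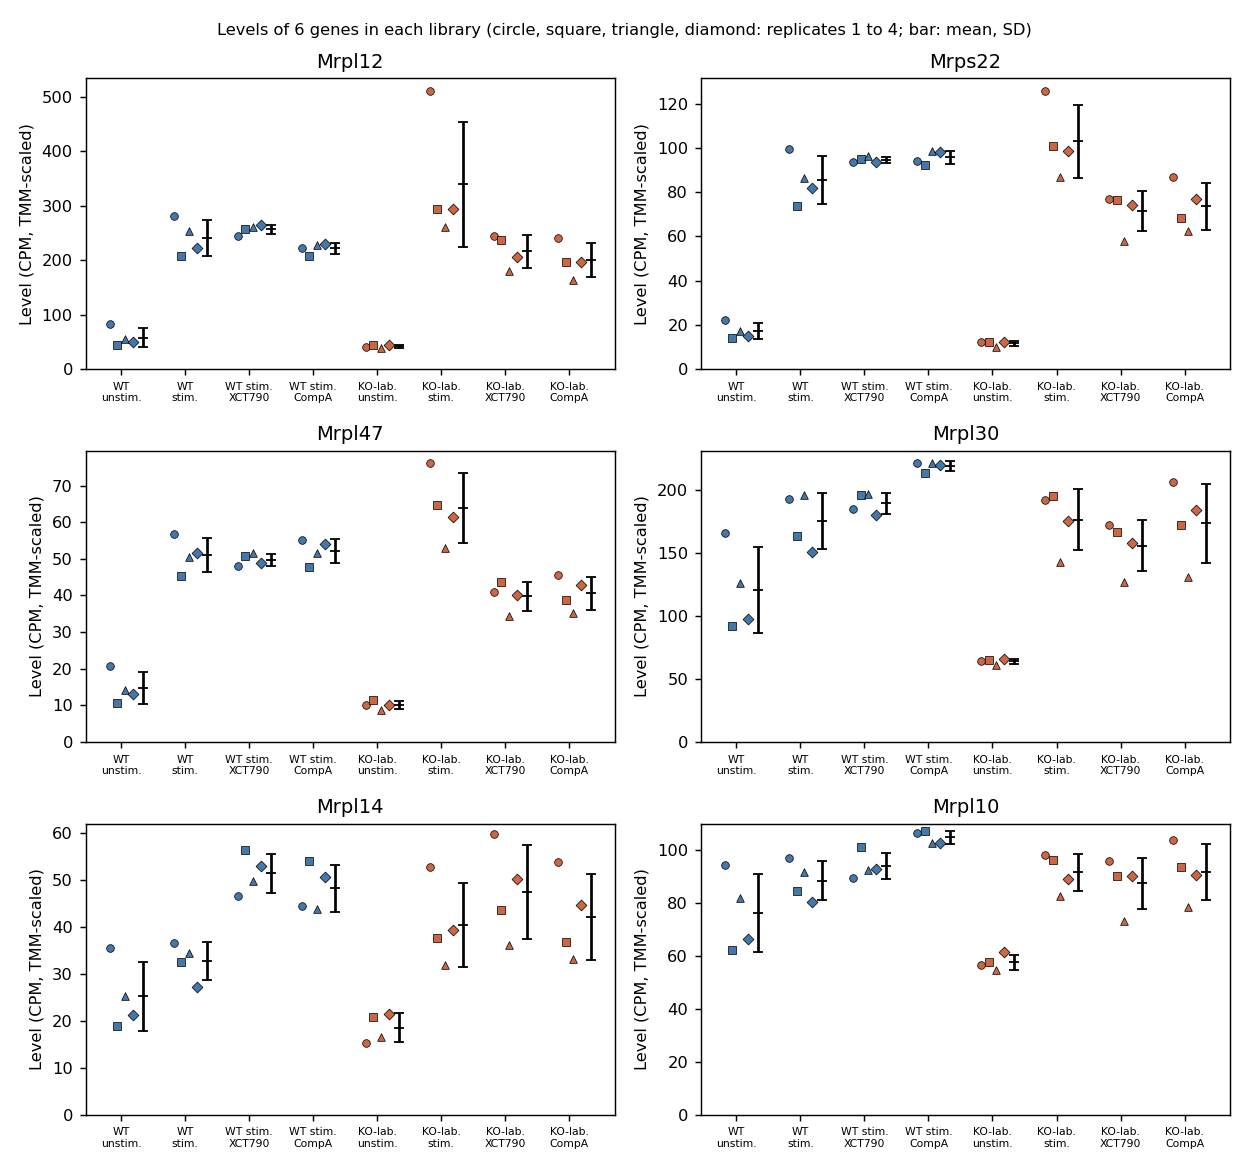
Levels of Mrpl12, Mrps22, Mrpl47, Mrpl30, Mrpl14 and Mrpl10 in each library (vertical axes, CPM scaled by TMM, each starting at 0), by group, with the mean and SD as bars. Mrpl12, Mrps22 and Mrpl47 rise steeply with stimulation and are lower under both compounds in KO-labelled cells, Mrpl10 has the smallest rise of the 77 in KO-labelled cells (1.59-fold), and Mrpl30 shows the low KO-labelled unstimulated values.

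Both compounds went with lower levels of these transcripts in stimulated KO-labelled cells. With XCT790, 22 of 77 members fell and 0 rose, where 5.07% of all tested genes fell and 6.2% rose, and the median log2 change was -0.29 against 0.02 over all genes. With CompA, 33 fell and 0 rose, where 9.11% of all tested genes fell and 10.2% rose, with a median of -0.33 against 0.03. In 16 members every library with XCT790 was below every stimulated library (5.18% of all tested genes), and in 19 with CompA (7.02%). Both comparisons use the same 4 stimulated libraries, so their values are given side by side and are not independent. By class, XCT790 and CompA lowered 9 and 12 of 29 large-subunit proteins with a bacterial counterpart, 6 and 11 of 21 specific to mitochondria, 3 and 5 of 16 small-subunit proteins with a bacterial counterpart, and 4 and 5 of 10 specific to mitochondria.

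Mrpl47, a large-subunit protein with a bacterial counterpart (chromosome 3, 32725397 to 32737605, minus strand), was at 76.1, 64.8, 52.9 and 61.4 CPM in stimulated KO-labelled cells. It was at 41, 43.6, 34.3 and 40.2 CPM with XCT790 and at 45.5, 38.7, 35.2 and 43 CPM with CompA. All values with a compound lay below all values without, and the falls were 1.60-fold (log2 -0.68 ± 0.13, adjusted p = 0.0015) and 1.57-fold (-0.65 ± 0.13, 0.001). Mrpl12 was at 244, 238, 180 and 205 CPM with XCT790 and at 241, 198, 165 and 197 with CompA, 1.57-fold (adjusted p = 0.013) and 1.70-fold (0.002) below the stimulated libraries listed above. Under XCT790 its fall was not called without stimulated replicate 1 (log2 -0.40, adjusted p = 0.075) or without XCT790 replicate 3 (-0.58, 0.052).

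Mrpl54, a mitochondria-specific large-subunit protein, was at 125, 85.7, 59.5 and 75.2 CPM when stimulated, 75.4, 71.7, 50.3 and 65.3 with XCT790 and 61.9, 43.8, 38.6 and 45.7 with CompA. Its fall was 1.82-fold with CompA (log2 -0.86 ± 0.18, adjusted p = 0.0016), while with XCT790 the log2 change of -0.39 did not pass the test (adjusted p = 0.17). Mrps22 fell with both compounds, by 0.53 ± 0.13 (adjusted p = 0.007) and 0.49 ± 0.13 (0.0068) on the log2 scale. Mrpl53 fell with both as well, by 0.59 ± 0.19 (0.036) and 0.76 ± 0.19 (0.0046), but under XCT790 not without stimulated replicate 1 (-0.36, 0.2) or XCT790 replicates 3 (-0.48, 0.14) or 4 (-0.55, 0.085). Mrpl10 was among the members that moved least, with log2 changes of -0.07 ± 0.10 with XCT790 and 0.00 ± 0.10 with CompA. Mrpl14 had the largest positive value under XCT790 (0.23 ± 0.18, adjusted p = 0.45).

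Library numbers form runs of 4, each with 1 library of every treatment, and in KO-labelled cells the deviations of the genes from their group means correlated between libraries of a run (0.56 to 0.78 among the stimulated groups). The summed levels did not always deviate in the same direction within a run. Within the 4 runs the summed level changed by -25.8, -17.7, -18.2 and -14.1% with XCT790 and by -23.5, -25.3, -20.2 and -16.3% with CompA. In every run 66 of the 77 members were lower with XCT790, and 64 with CompA. The share of all tested genes lower in every run was not counted, so how unusual these counts are cannot be told. With the run as a replicate block the counts of falls were 39 with XCT790 in place of 22, and 44 with CompA in place of 33. Without the block the XCT790 count was 8 and 34 when stimulated replicate 1 or 3 was left out, 6 without XCT790 replicate 3, 12 without run 2, whose libraries held the highest B cell marker sums, and 1 when only the 2 groups were fitted. For CompA it was 21 without CompA replicate 3, 21 without run 2, and 10 when only the 2 groups were fitted. Calls over all tested genes were not counted in the fits with the block, with libraries left out or of only the 2 groups.

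In WT cells no member fell with either compound by the same test. With XCT790, 4 members rose and 0 fell (8.4% of all tested genes rose and 20.2% fell), with a median log2 change of 0.17. These were Mrpl14 (0.65 ± 0.18, adjusted p = 0.0067), Mrpl16 (0.34 ± 0.12, 0.032), Mrps27 (0.31 ± 0.10, 0.018) and Mrpl45 (0.28 ± 0.10, 0.031). With CompA, 9 rose and 0 fell (11.6% of all tested genes rose and 21.3% fell). The largest rises were those of Mrpl14 (0.56 ± 0.18, 0.017), Mrpl13 (0.48, 0.0035), Mrpl23 (0.43, 0.024), Mrpl34 (0.42) and Mrpl55 (0.40). The share of members that rose was below that of all tested genes with XCT790 and about equal to it with CompA. Rises were thus not more frequent among the members than among all tested genes, while falls were less frequent with both compounds. Mrpl14, which lies at the interface between the subunits, was at 36.6, 32.6, 34.5 and 27.2 CPM when stimulated, 46.6, 56.3, 49.7 and 52.9 with XCT790 and 44.4, 54.1, 43.8 and 50.7 with CompA. The libraries with a compound were all above those without. Mrpl47 (log2 -0.04 with XCT790 and 0.03 with CompA) and Mrpl12 (0.09 and -0.12) did not pass the test. With the run as a replicate block more members were called for both compounds, as given in the closing sections.

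These WT comparisons use the stimulated libraries in which the 112 genes kept 0.161 to 0.465 of their WT unstimulated level. That ratio was taken as an unstimulated share, and its source was not tested. With that share subtracted, 0 members were higher and 1 lower with XCT790, and 0 higher and 15 lower with CompA, with medians of -0.11 and -0.16. Over all 12314 genes of that fit, 468 were higher and 368 lower with XCT790, and 1357 and 1316 with CompA. Mrpl14 then had log2 changes of 0.50 (adjusted p = 0.099) and 0.41 (0.12). Counts of rises under XCT790 were 8, 1 and 1 without WT stimulated replicates 1, 2 and 4, and under CompA 3 and 1 without replicates 2 and 4, each then beside 1 fall. Mrpl16, Mrps27 and Mrpl45 were not called under XCT790 without WT stimulated replicate 2 (adjusted p 0.088, 0.071 and 0.11) or 4 (0.11, 0.06 and 0.09), and Mrpl16 not without XCT790 replicate 2 (0.074). Under CompA, Mrpl14, Mrpl23, Mrpl34 and Mrpl55 were not called without WT stimulated replicate 4 (0.063, 0.087, 0.062 and 0.073), and Mrpl23 and Mrpl55 not without replicate 2 (0.058 and 0.056).

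**Figure D5:**
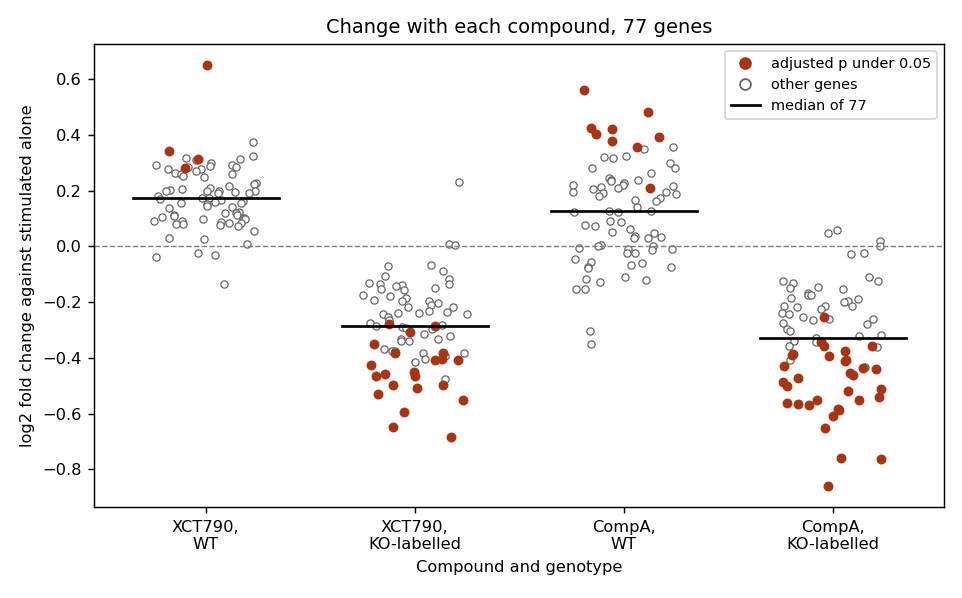
Log2 fold change of each of the 77 genes against stimulation alone (vertical axis) for XCT790 and CompA in WT and KO-labelled cells, with genes of adjusted p under 0.05 filled and the median of the 77 as a line. The medians are 0.17 and 0.13 in WT and -0.29 and -0.33 in KO-labelled cells.

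The response to each compound differed between the genotypes by the test of the difference. For XCT790, 35 members had a lower response in KO-labelled cells and 0 a higher one, where 7.23% of all tested genes were lower and 17.5% higher, with a median difference of -0.47. For CompA the count was 21 (5.99% lower and 15.6% higher over all genes), with a median of -0.44. Mrps22 differed by -0.68 ± 0.18 (adjusted p = 0.006) for XCT790 and -0.65 ± 0.18 (0.0091) for CompA, and Mrpl47 by -0.65 ± 0.19 (0.012) and -0.68 ± 0.19 (0.0095). All 77 differences had a negative sign for both compounds, and both use the same stimulated libraries. With the unstimulated share subtracted from the WT stimulated libraries, 0 members were called for either compound and the medians were -0.18 and -0.17. In that fit 0 of all 12314 genes were called for either compound, so the 0 does not single out the members. The medians over all genes were -0.01 and -0.01. The XCT790 count was 16 and 18 without WT stimulated replicates 2 and 4, 20 without KO-labelled XCT790 replicate 3 and 19 without KO-labelled run 2. The CompA count was 37, 6 and 12 without WT stimulated replicates 1, 2 and 4 and 12 without WT CompA replicate 4. It was 54, 11 and 8 without KO-labelled CompA replicates 1, 2 and 3, 48 without KO-labelled stimulated replicate 3, and 8 without run 2.

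XCT790 and CompA were given at the same dose for the same time, so their levels can be set against each other directly, as 2 pairs over the genotypes. In KO-labelled cells 0 of 77 members differed (1.97% of all tested genes were higher with XCT790 and 1.27% lower), and 2 had an unadjusted p under 0.05. DESeq2 and limma-voom also called 0, and the replicate block called 2. The differences ranged from -0.25 to 0.47 on the log2 scale, with Mrpl54 the highest (0.47 ± 0.18, adjusted p = 0.19). In WT cells 2 members were higher with XCT790, Mrpl19 (0.36 ± 0.11, adjusted p = 0.045) and Mrps27 (0.31 ± 0.10), and 0 were lower (4.33 and 5.08% of all tested genes). Neither was called when any one of the 8 libraries was left out, with adjusted p-values of 0.068 to 0.1 for Mrpl19 and 0.051 to 0.11 for Mrps27. Library totals gave 6 higher and 2 lower in place of 2 and 0, the replicate block 7 and 1, and a fit of only these 2 groups 17 and 5. The libraries did not overlap for 22 members higher with XCT790 and 8 lower, against 11.8 and 13% of all tested genes. A p above the threshold does not show that the compounds act alike on these genes.

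Other genes of mitochondrial translation moved in the same comparisons. With stimulation, 34.5% of all tested genes rose and 38.8% fell in WT cells, and 39.3% rose and 42.4% fell in KO-labelled cells. Of 6 mitoribosomal proteins listed under other names, 5 rose with stimulation in WT and 6 in KO-labelled cells. Ptcd3, a small-subunit protein that binds RNA, rose 3.13-fold and 3.93-fold (adjusted p = 3.8e-16 and 3.6e-18). Of 14 mitochondrial translation factors, 12 rose in either genotype, among them the elongation factors Gfm1 (3.39-fold and 3.80-fold) and Tufm (2.90-fold and 3.73-fold). Of 22 assembly and rRNA modification factors, 15 rose and 2 fell in WT, and 20 rose and 1 fell in KO-labelled cells. Fastkd2, which binds the large mitochondrial rRNA, rose 4.34-fold and 7.62-fold. Of 17 mitochondrial aminoacyl-tRNA synthetases, 12 rose and 2 fell in WT and 14 rose and 0 fell in KO-labelled cells, with Yars2 at 3.80-fold and 5.95-fold. Of 11 genes of mitochondrial DNA transcription and maintenance, 8 rose and 1 fell in each genotype. The mRNAs encoded by mitochondrial DNA were not analysed here.

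With the compounds in KO-labelled cells these lists had smaller counts, to be read beside 5.07% of all tested genes lower with XCT790 and 9.11% with CompA. With XCT790, 4 of 14 translation factors, 3 of 22 assembly factors, 3 of 17 synthetases, 1 of 11 DNA maintenance genes and 1 of 6 mitoribosomal proteins under other names fell, and 0 of them rose. With CompA the falls were 3, 6, 7, 2 and 1, beside 1 rise among the assembly factors. Fastkd2 fell by 0.57 on the log2 scale with XCT790 (adjusted p = 0.011, but 0.05 without XCT790 replicate 3) and by 0.78 with CompA (0.00043). Mars2, the methionyl-tRNA synthetase, fell by 0.51 (0.0027) and 0.45 (0.0034).

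Of the 10 tested regulators of mitochondrial biogenesis, 5 rose and 1 fell with stimulation in WT cells and 5 rose and 3 fell in KO-labelled cells, over few genes and beside 34.5% higher and 38.8% lower of all tested genes in WT and 39.3% and 42.4% in KO-labelled cells. Myc, a transcription factor of growth and ribosome production, rose 5.86-fold and 7.42-fold (adjusted p = 1.9e-15 and 6.4e-17). Pprc1, a coactivator related to PGC-1, rose 2.95-fold and 3.26-fold (2.4e-10 and 1.7e-11). Esrra, which encodes ERR-alpha, had log2 changes of -0.17 (adjusted p = 0.24) and -0.01 (0.94). With XCT790 in KO-labelled cells Esrra was the one regulator that passed the test, going from 35.3 ± 5.13 to 23.2 ± 4.51 CPM (SD, n = 4), a fall of 0.61 on the log2 scale (0.004). With CompA it was at 34.8 ± 4.83 CPM (adjusted p = 0.94), and Nrf1, which encodes the factor of the NRF1 motif, was the one regulator that passed, with a log2 change of -0.29 (0.0068). In WT cells Esrra was at 37.7 ± 4.93 CPM when stimulated, 26.1 ± 0.391 with XCT790 (log2 -0.53, adjusted p = 0.003) and 35 ± 2.32 with CompA. Nrf1 was lower with CompA in WT cells too, at 53 ± 1.96 CPM when stimulated and 40.2 ± 1.12 with CompA. Of the regulators in WT cells 0 rose and 1 fell with XCT790, where 8.4% of all tested genes rose and 20.2% fell. With CompA 1 rose and 2 fell, where 11.6% rose and 21.3% fell.

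Members with and without a promoter motif were set side by side. The 5 members with an E-box had a median log2 change of 1.74 with stimulation in WT cells, against 1.02 for the 63 members without one, and of 2.27 against 1.64 in KO-labelled cells. The 13 with NRF1 letters had medians of 0.73 and 1.48 against 1.14 and 1.78 for the 55 without, and the 25 with GABPA letters 0.93 and 1.61 against 1.22 and 1.71 for the 43 without. Under XCT790 in KO-labelled cells the medians were -0.41 with and -0.29 without an E-box, and -0.27 and -0.29 with and without NRF1 letters. These are descriptions without a test, over few genes.

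The ribosomal proteins of the cytosol and the subunits of respiratory complex I were measured in the same libraries for comparison, without subtracting the unstimulated share. Of all tested genes, 34.5% rose and 38.8% fell with stimulation in WT cells, and 39.3% and 42.4% in KO-labelled cells. With XCT790 and CompA in KO-labelled cells 5.07 and 9.11% fell, and 23.6% were lower in unstimulated KO-labelled than in WT cells. With stimulation in WT cells 8 of 80 tested cytosolic ribosomal proteins rose and 26 fell (median log2 -0.28), and 26 of 35 complex I subunits rose and 1 fell (0.70), beside 73 and 0 of the 77 mitochondrial ribosomal proteins (1.13). In KO-labelled cells 55 and 1 of the cytosolic proteins and 34 and 0 of the complex I subunits moved (medians 0.57 and 1.26, beside 1.70). With XCT790 and CompA in KO-labelled cells 1 and 1 of the cytosolic proteins and 1 and 4 of the complex I subunits fell, beside 22 and 33 mitochondrial ribosomal proteins. The medians were 0.05 and -0.06 for the cytosolic proteins and -0.17 and -0.19 for complex I, beside -0.29 and -0.33. The median genotype differences of these responses were -0.07 and -0.15 for the cytosolic proteins, and -0.36 and -0.42 for complex I. Beside them stood -0.47 and -0.44 for the mitochondrial ribosomal proteins. Unstimulated KO-labelled cells were lower than WT cells for 71 of the 80 cytosolic proteins (median -0.90) and 30 of the 35 complex I subunits (-0.55), beside 62 of the 77 mitochondrial ones (-0.46). The change with stimulation was higher in KO-labelled cells for 68 cytosolic proteins (median 0.80) and 34 complex I subunits (0.75). Beside them stood 73 mitochondrial ribosomal proteins (0.68) and 17.2% of all tested genes. The differences between the lists were not tested.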

How the data were processed

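Poly(A) RNA sequencing libraries were made with a directional kit from mouse CD4+ T cells, 32 libraries in 8 groups of 4. The deposited files hold whole-number read counts per gene for each library, not normalized by the authors. The submitters' processing notes name Trimmomatic 0.36, HISAT2 2.1.0, SAMtools, HTSeq 0.9.1, R 3.4.4, DESeq2 1.18.1 and the build mm10; the strand setting and annotation version are not given in the sources used here. Summary lines of the counter, with 5.31 to 13.3% of listed reads in no feature and 1.10 to 2.32% ambiguous, stayed out of library sizes and tests.

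Counts were fitted in 1 model of all 32 libraries with edgeR 4.0.16 (TMM factors, its default filter, quasi-likelihood F test) in R 4.3.3, with 15 contrasts. Benjamini-Hochberg adjustment ran over all 12332 genes tested, with calls at adjusted p below 0.05. Levels are TMM-scaled CPM unless given per library total; levels per kilobase use the GENCODE M21 exonic length. No overlap means that every library of one group lay above every library of the other. Alternatives were library totals, upper-quartile factors, other filters, DESeq2 1.42.0, limma-voom (limma 3.58.1), the replicate block, fits of only the groups compared, each library left out, KO-labelled run 2 left out, and an unstimulated share subtracted from the WT stimulated libraries; its form using the unstimulated library of the same run was chosen after seeing the data. In simulated data for stimulation in KO-labelled cells, 200 of 12332 genes were changed. Of these, 87% of genes changed 2-fold and 53% of those changed 1.5-fold were recovered, with 6 false calls among the unchanged.

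Replicate numbers follow runs of 4 library numbers. Deviations from group means correlated within runs at 0.13 to 0.78 in every KO-labelled pair of groups. In WT cells they correlated at 0.42 to 0.63 between unstimulated and stimulated and at 0.23 to 0.64 between the compounds, but at 0.02 to 0.27 and -0.04 to 0.37 between stimulation alone and XCT790 or CompA. Library numbers and genotype cannot be told apart. Genes were named by a rule: in each comparison the 5 largest rises and 5 largest falls among called members of at least 10 CPM, called members against the majority, a fixed set of members (Mrpl10, Mrpl12, Mrpl45, Mrps12, Mrps18a, Mrps18b, Mrps18c, Mrps27, Mrps30, Mrps36), and the pathway genes of smallest adjusted p with regulators such as Esrra and Myc. The text names part of these, and members outside the rule, such as those that did not pass the test, were chosen after their values were seen. The members and the lists were chosen with earlier results of these data known.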

Additional observations from a re-analysis of the deposited data

Results flagged for a closer look

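Of 136 groups of 4 libraries checked for the members followed through the text, 7 held a library that stood apart from the other 3 by Dixon's ratio, where chance gives about 1 in 20. In stimulated KO-labelled cells Mrpl12 had 1 library at 510.6 CPM (the others at 260.5 to 294.9) and Mrps36 had 1 at 16.15 CPM (23.71 to 25.19). Mrps22 had 1 library at 9.906 CPM in unstimulated KO-labelled cells (12.11 to 12.42) and 1 at 57.84 CPM with XCT790 (74.2 to 76.84). In WT cells with CompA, Mrpl30 had 1 library at 213.9 CPM (220.4 to 221.7), Mrpl53 1 at 31.68 CPM (36.3 to 36.67) and Mrps18a 1 at 62.25 CPM (71.09 to 71.97).

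Effects that differed between the genotypes by the interaction test in edgeR were those of stimulation for 73 members, of XCT790 for 35 and of CompA for 21. For stimulation the log2 differences, KO-labelled minus WT, were 1.02 for Mrps28, 0.96 for Mrpl12, 0.93 for Mrpl53, 0.92 for Mrpl30, 0.86 for Mrpl20 and Mrpl47, 0.85 for Mrpl54 and Mrps18c and 0.84 for Mrps18b. They were 0.82 for Mrps22, 0.74 for Mrpl14, 0.71 for Mrps18a, 0.67 for Mrps27 and Mrps36 and 0.45 for Mrpl10. For XCT790 they were -0.74 for Mrpl12, -0.69 for Mrpl20, -0.68 for Mrps22, -0.66 for Mrps36, -0.65 for Mrpl47, -0.57 for Mrps18a, -0.49 for Mrpl19, -0.46 for Mrps18b and -0.45 for Mrps27. For CompA they were -0.68 for Mrpl47, -0.65 for Mrps22 and -0.39 for Mrps27.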

How the results depend on the processing

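All 77 members stayed called higher with stimulation in KO-labelled cells under every alternative run, and 69 to 77 in WT cells. Counts below are members called, in both directions together, beside the main count, and the cause of each shift was not tested except that fits of only the groups compared use fewer samples. Library totals gave 26 for KO against WT in unstimulated cells (62), 21 in stimulated cells (10), 4 with CompA (2) and 8 for XCT790 against CompA in WT (2). Without a filter on low counts KO against WT in stimulated cells gave 19. DESeq2 gave 29 there, 9 with XCT790 (3) and 7 with CompA, 7 for XCT790 in WT (4), 14 for CompA in WT (9), and 54 and 50 for the genotype differences of XCT790 (35) and CompA (21). Limma-voom gave 4 for KO against WT with CompA. With the replicate block the counts were 13 for XCT790 and 22 for CompA in WT, 39 for XCT790 in KO-labelled cells (22), 57 and 58 for the genotype differences, 8 and 2 for XCT790 against CompA in WT and KO-labelled cells, and 5 and 6 for KO against WT with XCT790 and CompA; it moved no other count by over 1.5 times. In WT cells the deviations with stimulation alone correlated within runs at 0.02 to 0.27 with those under XCT790. With those under CompA they correlated at -0.04 to 0.37. Whether these libraries are paired cannot be told from these values.

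Fits of only the groups compared gave 37 for the genotype difference of stimulation (73), 13 and 21 for XCT790 and CompA in WT, 1 and 10 for them in KO-labelled cells, 22 for XCT790 against CompA in WT, and 10, 0 and 8 for KO against WT in unstimulated, stimulated and XCT790-treated cells. With the unstimulated share subtracted, the counts were 4 for the genotype difference of stimulation, 0 for those of the compounds, and, with the direction now lower, 1 for XCT790 in WT, 15 for CompA in WT and 1 for KO against WT in stimulated cells. With the share of the same run they were 4, 0, 0, 3, 17 and 1. For the genotype differences of XCT790 and CompA the first form called 0 and 0 of all 12314 genes. The second form called 1 and 2 of all 12311 genes, each lower. The median of all 77 turned sign for XCT790 and CompA in WT and for KO against WT in stimulated cells. Among the members followed by name, those that turned sign and were called in 1 of the fits compared were Mrps27 (-0.0027 and -0.0094 for XCT790 in WT with the 2 forms, -0.3174 and -0.3241 for CompA), Mrpl45 (-0.0459 and -0.0491, -0.2832 and -0.2864), and, for KO against WT in stimulated cells, Mrps10 (-0.017 and -0.0144), Mrps6 (-0.0311 and -0.0309) and Mrpl45 (-0.0277 and -0.031). Leaving out KO-labelled run 2 gave 12 for XCT790 and 21 for CompA in KO-labelled cells and 19 and 8 for the genotype differences.

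Leaving out 1 library at a time gave 71 to 77 for stimulation in WT and 44 to 76 for its genotype difference, 1 to 8 and 2 to 12 for XCT790 and CompA in WT, 6 to 34 and 21 to 45 in KO-labelled cells, and 16 to 52 and 6 to 54 for their genotype differences. It gave 0 to 1 for XCT790 against CompA in WT, and 9 to 71, 1 to 30, 1 to 3 and 1 to 4 for KO against WT in unstimulated, stimulated, XCT790-treated and CompA-treated cells. Here and in the sections above, calls over all tested genes were not counted with libraries left out, the replicate block or only the groups compared. Whether such shifts are particular to the members cannot be told. With 4 libraries a group, 53% of simulated 1.5-fold changes were recovered. In that simulation 200 of 12332 genes were changed, while in the real comparison 39.3% of tested genes rose and 42.4% fell. The 53% therefore does not give the rate of detection for the members. A change that did not pass the test may still be present.

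The medians that moved by more than the spread were 1.36, 1.44 and 1.54 for stimulation in KO-labelled cells with library totals, upper-quartile factors and a stricter filter, 0.41 for its genotype difference and -0.23 for KO against WT in unstimulated cells with library totals. With the share subtracted in its 2 forms they were 1.41 and 1.42 for stimulation in WT, 0.39 and 0.38 for its genotype difference, -0.11 and -0.12 for XCT790 and -0.16 and -0.16 for CompA in WT, -0.18 and -0.17 for the genotype difference of XCT790, -0.17 and -0.16 for that of CompA, and -0.03 and -0.04 for KO against WT in stimulated cells. Over all genes the split of higher and lower calls also moved for stimulation (4254 and 4783 in WT, 3396 and 5934 with upper-quartile factors; 4851 and 5225 in KO-labelled cells, 3795 and 6334 with library totals). With library totals it went from 1036 and 2491 to 577 and 2846 for XCT790 in WT, from 1922 and 739 to 2255 and 472 for the genotype difference of CompA, from 243 and 157 to 213 and 269 for XCT790 against CompA in KO-labelled cells, and from 718 and 232 to 932 and 134 for KO against WT with CompA. Over single genes, 5623 of the recomputed values kept direction and call, 422 lost a call, 158 gained one and 14 reversed.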
